A study of Mus musculus with 35 samples.

Results

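Genes of the red cell surface and of carbon dioxide handling were examined in mouse HSPCs. They are Rhag, Rhd, Kel, Ermap, Slc4a1, Ank1, Aqp1, Car1 and Car2, a list of 9 genes grouped by function, although earlier results of these data were known when it was made. All 9 of 9 were found among the 11982 gene names of the RNA-seq table, and all had a mean over 0.5 RPKM, the level required for testing. RPKM is the number of reads divided by the length of the transcript and by the depth of the library, so levels can be compared between genes of different length.

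The libraries came from hematopoietic stem/progenitor cells (HSPCs) of mouse bone marrow, 2 from wild-type (WT) mice and 2 from JMJD1B-/- mice. Both genotypes had a mixed 129P2xC57BL/6J background, and the knockout was made with a gene trap, an insertion that interrupts the gene. JMJD1B, encoded by Kdm3b, removes methyl groups from histones. The study used mice of both sexes and gives a range of ages for them. The labels give no age or sex for a library, and do not say how many mice each one holds. The RNA was polyadenylated RNA sequenced with a kit that does not mark strand.

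During the last divisions before it loses its nucleus, an erythroblast builds a membrane that can bend through capillaries and exchange gas within a single passage. Band 3, the product of Slc4a1, swaps bicarbonate for chloride and is tied by ankyrin-1, the product of Ank1, to a spectrin mesh beneath the membrane. RhAG and RhD form the Rh complex, Kell and ERMAP carry further blood group antigens, and aquaporin-1 lets water pass. Carbonic anhydrases I and II, encoded by Car1 and Car2, convert carbon dioxide to bicarbonate inside the cell. Several of these genes are switched on by GATA1 and KLF1, the leading transcription factors of the lineage, and Car1 and Car2 are already active in early erythroid progenitors.

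Promoter sequences from RefSeq, build GRCm38.p6, were available for 5 of the 9 genes, namely Aqp1, Ermap, Kel, Rhag and Rhd. They are shown because GATA1 binds short words of the GATA type, and the stretch before the start of transcription is where such words can be read. The letters GATA, preceded by A or T and followed by A or G, were searched on both strands in windows from 250 bases before to 50 bases after the start. Of the 5 windows, 4 held a GATA word, and Aqp1 held none. Of the 32851 windows in the RefSeq table, 29.8% held one. The 100 bases before the start, written 5′ to 3′ on the strand of the gene, are given for the 4 genes, with the GATA words in capitals on whichever strand they lie. Ermap is at chr4:119189996-119190095 on the minus strand, Kel at chr6:41704326-41704425 on the minus strand, Rhag at chr17:40811049-40811148 on the plus strand and Rhd at chr4:134864436-134864535 on the plus strand.
Ermap: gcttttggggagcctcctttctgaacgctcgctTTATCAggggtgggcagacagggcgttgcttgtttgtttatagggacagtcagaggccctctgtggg
Kel: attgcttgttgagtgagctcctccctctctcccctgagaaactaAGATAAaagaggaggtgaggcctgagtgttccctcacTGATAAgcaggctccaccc
Rhag: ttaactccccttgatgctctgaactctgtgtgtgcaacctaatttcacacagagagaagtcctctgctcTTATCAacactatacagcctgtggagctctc
Rhd: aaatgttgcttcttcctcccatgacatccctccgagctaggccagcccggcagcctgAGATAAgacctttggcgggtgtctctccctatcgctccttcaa

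The words began 67 bases before the start in Ermap, 56 and 19 bases before it in Kel, 31 bases before it in Rhag and 43 bases before it in Rhd. Windows of these 100 bases, a length chosen after the positions were seen, held a GATA word in 10.4% of the promoters in the table. KLF1 binds words of the CACC type, and the letters CCACACCC, CCGCACCC or CCCCACCC were found in 1 of the 5 longer windows, that of Aqp1, against 14.5% of all windows. A word that matches is a description of the sequence, and binding was not measured in the table used here.

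Kdm3b had 31.0 and 24.3 RPKM in WT replicates 1 and 2, and 4.00 and 4.63 RPKM in JMJD1B-/- replicates 1 and 2, the order used for all paired values here. Estimated depth ran to about 17500000 and 24600000 reads for WT and to about 6100000 and 21000000 reads for JMJD1B-/- HSPCs, so JMJD1B-/- replicate 1 was the shallowest. Its estimate was halved because 80.4% of its fitted read numbers were even, against 41.5% and 49.8% in WT replicate 2 and JMJD1B-/- replicate 2. Without halving it would be about 12200000 reads, still the lowest of the 4. Xist was found at 332 RPKM in WT replicate 2, while no other library exceeded 0.0510 RPKM. Listed beside it were the Y-linked genes Ddx3y, Eif2s3y, Kdm5d and Uty. The 5 genes summed to 105 and 334 RPKM in WT and to 117 and 118 RPKM in JMJD1B-/- HSPCs. Nearly all of the sum was thus Xist in WT replicate 2 and Y-linked genes in each other library, a female and a male pattern. Sex thus appeared unbalanced between the genotypes, and its part in the levels was not tested. Of the markers that define HSPCs, Kit was present at 51.6 to 92.7 RPKM, whereas Ly6a, the gene of Sca-1, lay between 0.629 and 2.96 RPKM.

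All 9 genes had higher mean levels in JMJD1B-/- HSPCs than in WT HSPCs. The ratio of the mean RPKM ran from 1.43 for Ermap to 3.40 for Slc4a1. For 8 of the 9 genes the lowest JMJD1B-/- value exceeded the highest WT value, an arrangement shared by 20.1% of all 11863 genes tested. The opposite arrangement was seen in 0 of the 9 genes and in 22.7% of all genes tested. Ermap was the gene whose libraries overlapped. In bulk RNA, more cells of the red cell lineage and more RNA per cell cannot be told apart.

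Each gene was tested on log2(RPKM + 0.1) with limma, a linear model that borrows the spread between replicates across all genes, with two-sided p-values and Benjamini-Hochberg adjustment over all genes tested. At an unadjusted p under 0.05, 8 of the 9 genes were higher and 0 were lower, against 3.81% higher and 6.33% lower among all genes tested. After adjustment, 0 of the 9 genes had a p under 0.05 in limma, and their adjusted p lay between 0.155 and 0.585, while 0.00843% of all genes were higher and 0.0337% were lower past that threshold. When the spread of each gene alone was used, without borrowing, Car2 was the 1 gene of the 9 whose unadjusted p was under 0.05. The adjusted count depended on the libraries, with 5 of the 9 genes past the threshold without JMJD1B-/- replicate 1 and 3 without JMJD1B-/- replicate 2, where 630 and 669 of all genes passed against 5 with all libraries, and 0 without either WT library. The median log2 fold change of the 9 genes was 0.95, against -0.025 over all genes tested, and it was 0.62 without JMJD1B-/- replicate 2. No exact permutation test was used, because its smallest two-sided p with 2 libraries a genotype is 0.333.

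**Figure D1:**
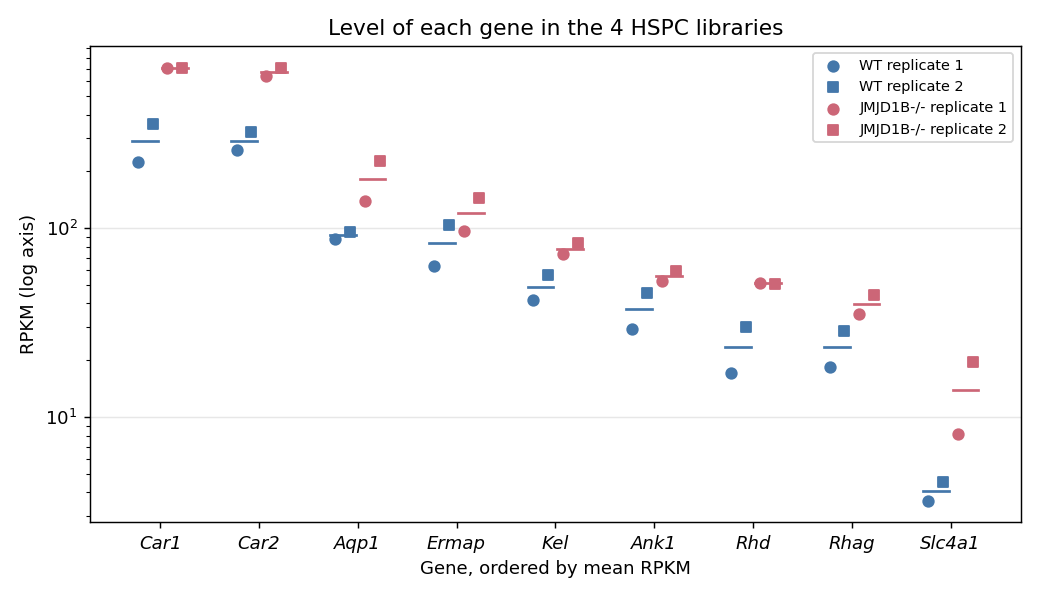
Level of the 9 genes in each HSPC library, as RPKM on a log axis. Points are single libraries (blue WT, red JMJD1B-/-; circles replicate 1, squares replicate 2) and short lines are group means. Car1 and Car2 have the highest levels in every library, from 223 RPKM upward, Slc4a1 has the lowest, up to 19.6 RPKM, and Ermap is the gene in which red and blue points overlap.

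The carbonic anhydrases were the most abundant of the 9 genes and had the lowest p-values. Car1 had 223 and 357 RPKM in WT replicates 1 and 2 and 707 and 706 RPKM in JMJD1B-/- replicates 1 and 2. The JMJD1B-/- libraries were nearly equal, and the lower of them was 1.98 times the higher WT library. The log2 fold change of Car1 was 1.32 with a standard error of 0.26 (unadjusted p = 0.00112, adjusted p = 0.185 in limma), which corresponds to a fold of 2.50 with a 95% confidence interval from 1.65 to 3.80.

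Car2, whose enzyme turns over carbon dioxide faster than that of Car1, had 259 and 324 RPKM in WT HSPCs, compared with 640.4 and 709 RPKM in JMJD1B-/- HSPCs. Its genotypes were again separate, with the lower JMJD1B-/- library at 1.98 times the higher WT library. The fold was 2.33, with a 95% confidence interval from 1.66 to 3.26 (unadjusted p = 0.000523, adjusted p = 0.155 in limma). The ratio of Car2 to Car1 was 1.16 and 0.909 in the WT libraries and 0.906 and 1.004 in the JMJD1B-/- libraries, so neither gene was the higher one throughout. Together they made up 64.8% and 65.1% of the summed RPKM of the 9 genes in WT HSPCs, and 74.7% and 69.3% in JMJD1B-/- HSPCs.

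Along the GRCm38.p6 assembly the protein-coding genes Car13, Car1, Car3 and Car2 follow each other in this order. Car3, the muscle and fat isoform that lies between Car1 and Car2, had 1.49 and 1.06 RPKM in WT HSPCs, compared with 0.320 and 0.942 RPKM in JMJD1B-/- HSPCs. Car13 had 2.38 and 3.53 RPKM against 0.497 and 3.47 RPKM. Both neighbours thus lay far under Car1 and Car2 in every library. Their log2 fold changes were -1.04 each (standard errors 0.76 for Car3 and 0.81 for Car13), with unadjusted p = 0.211 and 0.237 in limma.

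Of the Rh complex, Rhag is the member needed for the complex to reach the membrane, and Rhd encodes the Rh blood group polypeptide of the mouse. Rhag had 18.5 and 28.5 RPKM in WT HSPCs, compared with 35.3 and 44.3 RPKM in JMJD1B-/- HSPCs. The genotypes did not overlap, but the gap between the WT libraries, a ratio of 1.54, exceeded that between the higher WT and the lower JMJD1B-/- library, a ratio of 1.24. The fold was 1.72 with a 95% confidence interval from 1.14 to 2.59 (unadjusted p = 0.0169, adjusted p = 0.401 in limma).

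Rhd had 17.2 and 29.9 RPKM in WT HSPCs, compared with 51.3 and 50.8 RPKM in JMJD1B-/- HSPCs. As with Car1, the JMJD1B-/- libraries nearly coincided and lay apart from both WT libraries. Its log2 fold change of 1.16 (standard error 0.27) gave an unadjusted p = 0.00313 and an adjusted p = 0.254 in limma, and it was 0.77 without WT replicate 1. Rhag and Rhd stood close in WT HSPCs, with a ratio of Rhd to Rhag of 0.931 and 1.05, and the ratio was 1.45 and 1.15 in JMJD1B-/- HSPCs.

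The blood group genes Kel and Ermap encode a zinc peptidase of the surface and a butyrophilin-like protein. Kel had 42.0 and 56.3 RPKM in WT HSPCs, compared with 72.7 and 83.7 RPKM in JMJD1B-/- HSPCs. The genotypes did not overlap, and the fold was 1.60 with a 95% confidence interval from 1.15 to 2.24 (unadjusted p = 0.0121, adjusted p = 0.369 in limma). The Kell protein is held at the membrane by a bond to XK, and Xk had 9.80 and 12.7 RPKM in WT HSPCs, compared with 13.5 and 20.4 RPKM in JMJD1B-/- HSPCs (unadjusted p = 0.0726 in limma). The ratio of Xk to Kel lay between 0.186 and 0.243 over the 4 libraries.

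Ermap had 63.1 and 105 RPKM in WT HSPCs, compared with 96.2 and 144 RPKM in JMJD1B-/- HSPCs. WT replicate 2 lay above JMJD1B-/- replicate 1, so the genotypes overlapped. The log2 fold change was 0.53, with a 95% confidence interval from -0.15 to 1.22 that includes 0 (unadjusted p = 0.109, adjusted p = 0.585 in limma). It had an unadjusted p under 0.05 without WT replicate 2 (log2 fold change 0.90) and without JMJD1B-/- replicate 1 (0.82), whereas it was 0.17 without WT replicate 1 and 0.24 without JMJD1B-/- replicate 2.

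Slc4a1, the gene of band 3, was the least abundant of the 9 genes and had the largest fold change. It had 3.62 and 4.55 RPKM in WT HSPCs, compared with 8.16 and 19.6 RPKM in JMJD1B-/- HSPCs. Both JMJD1B-/- libraries lay above the WT libraries, but they differed from each other by a ratio of 2.40, the widest gap between replicates among the 9 genes. The log2 fold change was 1.62 with a standard error of 0.42 (unadjusted p = 0.00552, adjusted p = 0.291 in limma), and it became 2.25 when JMJD1B-/- replicate 1 was left out and 0.99 when JMJD1B-/- replicate 2 was. Per kilobase of transcript an estimated 63.4 and 112 reads covered Slc4a1 in the WT libraries and 49.8 and 413 reads in the JMJD1B-/- libraries, whereas each other gene of the 9 had at least 216 reads per kilobase in every library. In JMJD1B-/- replicate 1, the values of Slc4a1 and of Rhag, the 216 reads, rest on the halved depth and would be 99.7 and 431 reads without it.

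Ank1 had 29.3 and 45.4 RPKM in WT HSPCs, compared with 52.7 and 59.3 RPKM in JMJD1B-/- HSPCs. Its genotypes did not overlap, and the WT replicates lay further apart (a ratio of 1.55) than the higher WT and the lower JMJD1B-/- library (a ratio of 1.16). The fold was 1.53 with a 95% confidence interval from 1.04 to 2.26 (unadjusted p = 0.0360, adjusted p = 0.469 in limma). Ankyrin-1 anchors band 3, and the ratio of Ank1 to Slc4a1 was 8.08 and 9.98 in the WT libraries and 6.45 and 3.02 in the JMJD1B-/- libraries. In each library Ank1 was above Slc4a1, and the difference between their fold changes was not tested. The span of Ank1 also overlaps the lncRNA genes Gm51563 and Gm15816, and that of Car1 a pseudogene. An unstranded kit cannot set apart reads of exons that overlap on opposite strands. Overlap of exons and strand were not examined, so whether such reads entered the values is not known.

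Aqp1, the gene of the water channel, had 88.2 and 95.6 RPKM in WT HSPCs, compared with 139.8 and 227 RPKM in JMJD1B-/- HSPCs. Here the WT libraries were close, with a ratio of 1.08, and the JMJD1B-/- libraries were spread, with a ratio of 1.62. The fold was 1.94 with a 95% confidence interval from 1.30 to 2.90 (unadjusted p = 0.00568, adjusted p = 0.296 in limma). The log2 fold change of 0.95 was 0.61 without JMJD1B-/- replicate 2.

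**Figure D2:**
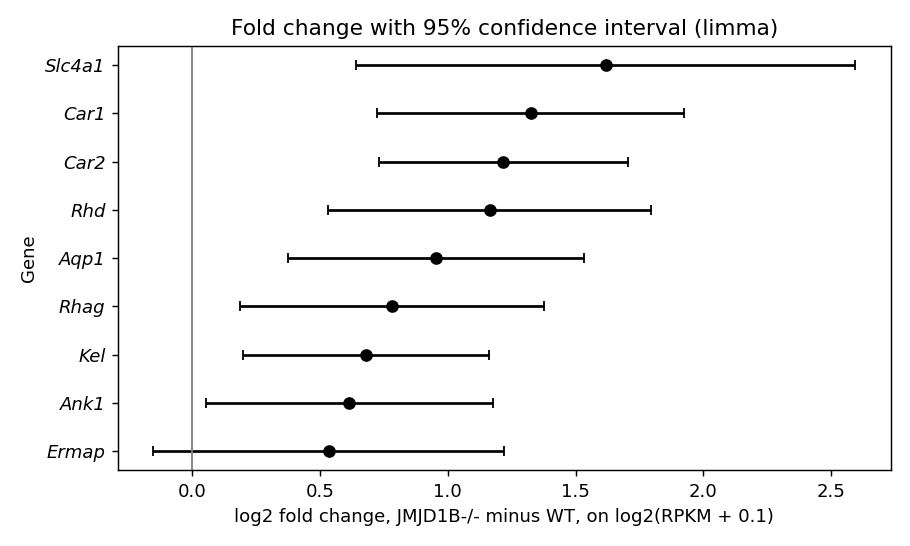
Fold change of the 9 genes between JMJD1B-/- and WT HSPCs, on the log2(RPKM + 0.1) scale, with points for the limma estimate and bars for the 95% confidence interval (n = 2 libraries each). Every estimate lies above 0, and the interval of Ermap includes 0.

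The genes also varied within a genotype. WT replicate 2 was above WT replicate 1 in 9 of 9 genes, by ratios from 1.08 for Aqp1 to 1.74 for Rhd, whereas 50.6% of all genes tested were higher in WT replicate 2. JMJD1B-/- replicate 2 was above JMJD1B-/- replicate 1 in 7 of the 9 genes, against 65.6% of all genes tested. The summed RPKM of the 9 genes was 744 and 1046 in the WT libraries and 1803 and 2043 in the JMJD1B-/- libraries. The order of the levels changed little between libraries, with Car1 and Car2 first, Aqp1 and Ermap next, Kel and Ank1 after them, then Rhag and Rhd, and Slc4a1 last. Within each of the pairs Car1 and Car2, Aqp1 and Ermap, and Rhag and Rhd, the order differed between libraries.

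Because WT replicate 1 was the lowest library for all 9 genes, the calls were repeated with each library left out. Without WT replicate 1, the unadjusted p was 0.160 for Rhag, 0.124 for Kel and 0.302 for Ank1, and their log2 fold changes were 0.47, 0.47 and 0.30, which left 5 genes under the unadjusted threshold of 0.05. Ank1 also missed this threshold without JMJD1B-/- replicate 2 (unadjusted p = 0.0615), which left 7 genes, and all 9 genes passed it without WT replicate 2 or without JMJD1B-/- replicate 1. Ank1 had a log2 fold change of 0.93 without WT replicate 2, the library with Xist, and the 9 genes then lay between 0.89 and 1.78. No gene changed sign in any of these fits, which was fixed beforehand for the 8 genes whose genotypes did not overlap.

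**Figure D3:**
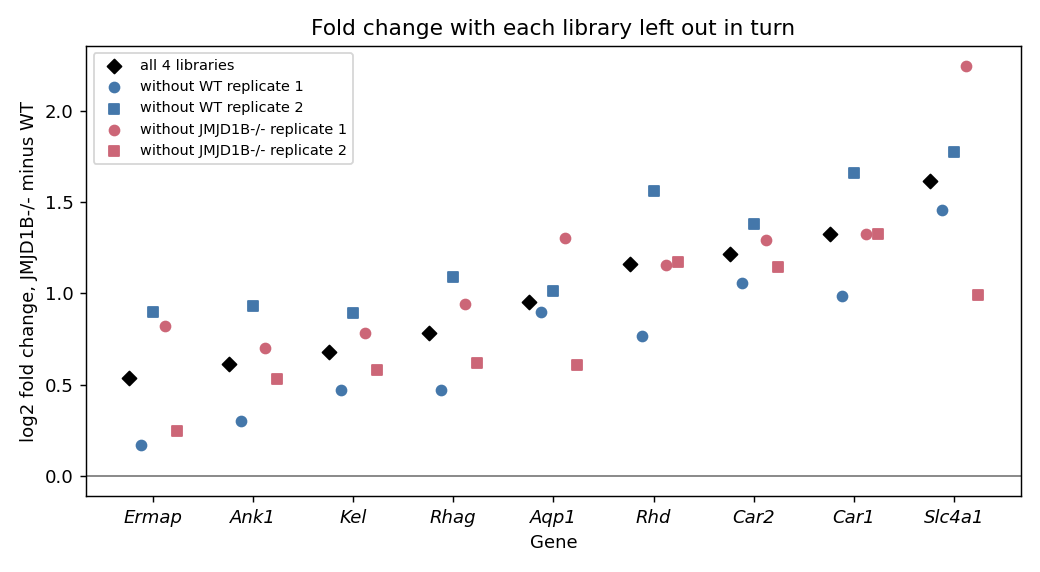
Log2 fold change of the 9 genes between JMJD1B-/- and WT HSPCs with all 4 libraries (black) and with 1 library left out (blue a WT library, red a JMJD1B-/- library; circles replicate 1, squares replicate 2). The estimates stay above 0, and Slc4a1 has the widest range, from 0.99 to 2.25.

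The rest of the membrane was described with lists written by function. The membrane skeleton, the mesh of spectrin, actin and their linkers, was represented by 14 genes, all tested. Of these, 4 were higher and 2 were lower at an unadjusted p under 0.05 in limma, against 3.81% and 6.33% of all genes tested, and the median log2 fold change was 0.10. After adjustment 0 passed, and with the spread of each gene alone 0 were higher and 1 was lower. The 4 higher genes were Epb42, the gene of protein 4.2, which binds band 3 (listed as Epb4.2, log2 fold change 1.32), Add2, the gene of beta-adducin (0.84), Sptb, the gene of erythroid beta-spectrin (listed as Spnb1, 0.67), and Stom, the gene of stomatin (0.67). The tropomyosin genes Tpm1 and Tpm3 were lower, by log2 fold changes of -1.09 and -0.48. Actb and Add1, the most abundant of the list beside Tpm3 and Stom, had log2 fold changes of 0.093 and -0.046.

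Protein 4.2 and beta-spectrin are partners of band 3 and ankyrin-1. Epb42 had 3.06 and 5.92 RPKM in WT HSPCs, compared with 11.5 and 10.2 RPKM in JMJD1B-/- HSPCs, which did not overlap with WT. Sptb had 20.5 and 35.3 RPKM against 43.6 and 42.4 RPKM, also without overlap. Its ratio to Ank1 lay between 0.701 and 0.828 in all 4 libraries.

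Of 24 other genes for proteins of the red cell surface, 22 were tested, 7 were higher and 1 was lower at an unadjusted p under 0.05 in limma, against 3.81% and 6.33% of all genes tested, and the median log2 fold change was 0.46. Here too 0 passed after adjustment, and 0 were higher and 1 was lower with the spread of each gene alone. The higher genes included Slc29a1, a nucleoside transporter (0.93), Art4, the gene of the Dombrock antigen (0.88), Slc43a1, an amino acid transporter (0.73), Gypc, the gene of glycophorin C (0.70), Abcb6, a transporter of the ABC family (0.57), and Cd44, an adhesion receptor (0.55), each given as a log2 fold change. Cd59a, which encodes an inhibitor of complement, was lower (-1.27). The most abundant genes of the list, Cd47, Slc14a1, Kcnn4 and Slc16a1, had log2 fold changes between -0.0030 and 0.53 and unadjusted p-values over 0.05.

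Paralogs from the same families were described in the same way. Of 25 ankyrins, Rh glycoproteins, bicarbonate transporters and carbonic anhydrases, 8 were in the table and tested, and the others were not analysed here. In limma 0 were higher and 0 were lower at the unadjusted threshold of 0.05, 0 passed after adjustment, Ank3 was lower when the spread of each gene alone was used, and their median log2 fold change was -0.41. Among all genes tested 3.81% were higher and 6.33% were lower, so a count of 0 in 8 genes is near the background, and the lists were not tested against each other. The most abundant of these were Slc4a7 (12.3 RPKM on average over the 4 libraries) and Slc4a2 (6.92 RPKM), transporters of wider tissue distribution, followed by Car13 (2.47 RPKM) and Car5b (1.60 RPKM).

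Among 13 erythroid regulators and markers tested, 9 were higher and 0 were lower at an unadjusted p under 0.05 in limma, against 3.81% and 6.33% of all genes tested, with a median log2 fold change of 1.22. None of the 13 (0 genes) passed after adjustment, and 0 were higher or lower with the spread of each gene alone. The higher genes were the globin genes Hba-a1, Hba-a2, Hbb-b1 and Hbb-b2, the heme synthesis gene Alas2, Trim10, Klf1, Gata1 and the transferrin receptor gene Tfrc. Not past the unadjusted threshold were Epor, Tal1 and Zfpm1, with log2 fold changes of 0.65, 0.34 and 0.058, and Nfe2, with a negative one of -0.41. Klf1 had 23.0 and 31.0 RPKM in WT HSPCs, compared with 52.0 and 74.6 RPKM in JMJD1B-/- HSPCs, and Gata1 had 32.8 and 35.9 RPKM against 44.5 and 63.6 RPKM. Hbb-b1 had the same order of libraries as Slc4a1, at 51.6 and 85.2 RPKM against 157 and 437 RPKM. As near-identical copies Hbb-b1 and Hbb-b2 could share reads, and so could Hba-a1 and Hba-a2. The count of 9 higher genes may thus hold the same globin signal more than once.

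Marker genes of other cells moved in the same libraries. Among all genes tested, 6.33% were lower and 3.81% were higher at an unadjusted p under 0.05. Stem and progenitor markers were lower in 5 of 10 genes at this threshold, with a summed level of 252 to 291 RPKM in WT and 158 to 207 RPKM in JMJD1B-/- HSPCs. Megakaryocyte markers were lower in 5 of 7 genes (625 to 685 RPKM in WT and 270 to 380 RPKM in JMJD1B-/- HSPCs). Basophil and mast cell markers were lower in 6 of 6 genes (474 to 550 RPKM in WT and 42.2 to 98.2 RPKM in JMJD1B-/- HSPCs).

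The other marker lists were read against the same shares of 6.33% lower and 3.81% higher. Of 8 granulocyte markers, 6 were tested, 4 were lower and the S100a8 and S100a9 genes were higher (181 to 266 RPKM in WT and 51.4 to 77.6 RPKM in JMJD1B-/- HSPCs), and Camp was listed at 0 in WT replicate 2 and JMJD1B-/- replicate 1. Monocyte and macrophage markers were lower in 3 of 6 genes tested (22.1 to 35.0 RPKM in WT and 8.59 to 24.8 RPKM in JMJD1B-/- HSPCs), and markers of stroma and endothelium in 1 of 4 (37.0 to 57.4 RPKM in WT and 10.1 to 23.2 RPKM in JMJD1B-/- HSPCs). T and NK cell markers were higher in 2 genes, Cd3e and Cd3g, and lower in 1, Nkg7, of 5 genes (16.1 to 18.5 RPKM in WT and 9.60 to 31.6 RPKM in JMJD1B-/- HSPCs). The 1 B cell marker of 5 in the table, Cd79b, was lower, at 1.99 to 3.28 RPKM in WT and 0.631 to 1.22 RPKM in JMJD1B-/- HSPCs. The erythroid regulators and markers summed to 546 to 693 RPKM in WT and 1059 to 2209 RPKM in JMJD1B-/- HSPCs, and of the marker genes of other cells 1 granulocyte gene and 1 basophil and mast cell gene passed after adjustment. With the spread of each gene alone, the lower counts were 1 for stem and progenitor, 2 for megakaryocyte, 2 for granulocyte, 4 for basophil and mast cell, 1 for T and NK cell and 0 for the other markers, and 0 were higher. The part of the cell composition in the levels of the 9 genes was not tested.

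**Figure D4:**
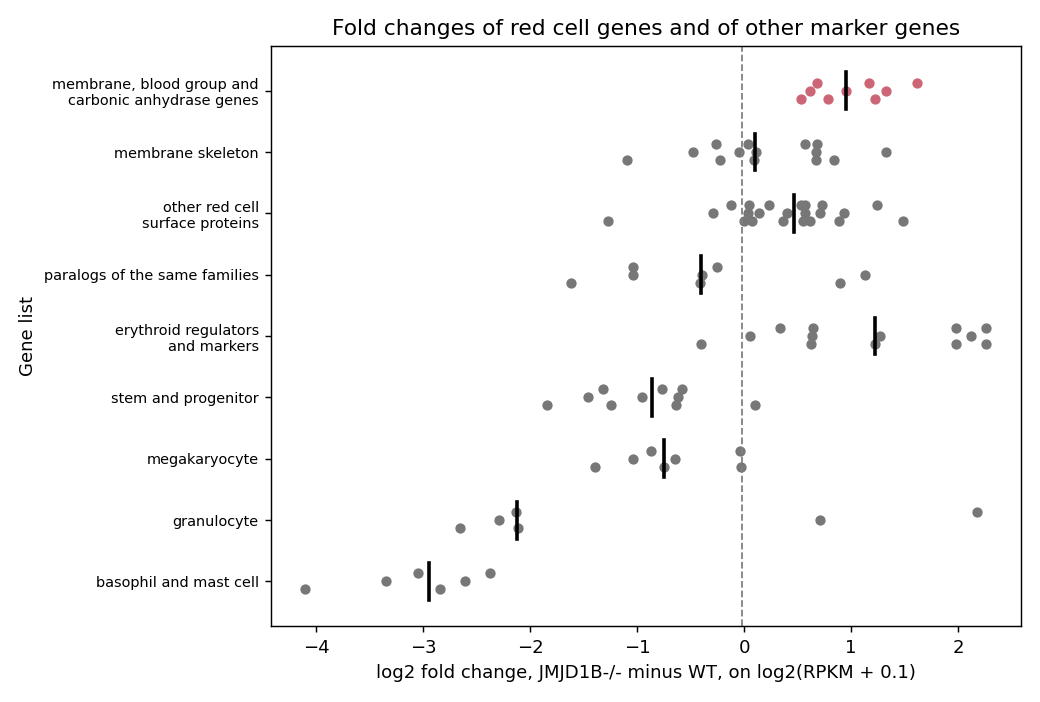
Log2 fold changes between JMJD1B-/- and WT HSPCs of the 9 genes (red) and of genes in 8 other lists (grey), each point 1 gene tested, with the list's median as a black bar and the median of all genes tested as a dashed line. The 9 genes lie to the right of the dashed line with a median of 0.95, paralogs of the same families have a median of -0.41, and the basophil and mast cell markers lie furthest to the left.

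The genes that followed the 9 genes most closely over the 4 libraries were found by the root mean square distance between log2 values centred on their own mean, among 8304 other genes with a mean of at least 5 RPKM. The nearest were Blvrb, the gene of biliverdin reductase B (distance 0.037), Eif2b1, a subunit of a translation initiation factor (0.054), Slc29a1 (0.058), Cpox, an enzyme of heme synthesis (0.067), and Mospd3 (0.072). Blvrb had 39.2 and 52.6 RPKM in WT HSPCs, compared with 79.9 and 99.8 RPKM in JMJD1B-/- HSPCs. The distances of the 9 genes from their own mean pattern ran from 0.11 for Rhag to 0.45 for Slc4a1. The nearest genes were picked for their small distance among 8304, so their distances cannot be compared with those of the 9 genes. All these distances describe 4 libraries and carry no test.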

How the data were processed

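The authors deposited 1 table of RPKM values for 4 HSPC RNA-seq libraries, with 1 added to every value, which was subtracted here. The submitters' processing notes name TopHat2, Novoalign and the build mm9, without saying which served the RNA-seq. The counting program and annotation are not given in the sources used here. The table lists no gene whose 4 values all lie under 1 RPKM. Values of 42 names with several entries were averaged, which concerned none of the 9 genes. ChIP-seq samples were not analysed here.

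The filter was a mean of 0.5 RPKM or more, and the test used log2(RPKM + 0.1), which understates changes of low genes, in limma 3.58.1 in R 4.3.3 (trend, no replicate term) and Benjamini-Hochberg adjustment over 11863 genes. The design text calls the libraries biological replicates. Depth was estimated from whole-number ratios between low values (halved where over 80% of the fitted read numbers were even) and from 42 genes whose RefSeq length gave the same depth, and covers counting error only. Tables used Python 3.11.15, pandas 2.3.3 and numpy 2.4.6, and figures matplotlib 3.10.9. The fit and the depth estimate were tested on simulated data.

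The 9 genes and the lists were chosen with earlier results of these data known. Named are the 9 genes, list genes with an unadjusted p under 0.05 or among the 4 most abundant of the red cell lists, the 5 nearest genes and Kdm3b. Other genes were named after their values were seen. Some genes of the lists are not reported here by name. Alternatives were pseudocounts of 1 and 0.01, no filter, a mean of at least 1 RPKM, median-ratio scaling, quantile normalization, no trend, a gene-by-gene test, a replicate term, the highest entry of a shared name and each library left out.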

Additional observations from a re-analysis of the deposited data

How the results depend on the processing

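All 9 genes stayed higher in JMJD1B-/- HSPCs under all 14 alternatives. With the gene-by-gene test 1 of them had an unadjusted p under 0.05, against 8 in limma. With each library left out in turn, this count lay between 5 and 9, the median log2 fold change between 0.62 and 1.16, the number of all genes lower between 177 and 1819 (751 with all libraries) and the number higher between 123 and 1258 (452 with all libraries). Of the called genes 62.4% were lower, against 54.3% after scaling by median ratios (median of the 9 genes 0.97) and 51.6% after quantile normalization (median 0.82). Without the trend, Rhag and Ank1 missed the unadjusted threshold, leaving 6 genes. The replicate numbers were not treated as pairs in the main fit. The correlation of replicate differences between genotypes across genes was -0.054, a value that cannot exclude pairing of the samples. A replicate block left 914 genes lower, 571 higher, all 9 genes at an unadjusted p under 0.05, their median at 0.95, and 6 of them at an adjusted p under 0.05, against 5 without JMJD1B-/- replicate 1, 3 without JMJD1B-/- replicate 2 and 0 under each other alternative. Fits with a block or a library left out have 1 residual degree of freedom per gene, and a lone library is assumed to vary like the other genotype. Depth limits Slc4a1 most, and 3 reads per kilobase equal 0.491 RPKM in JMJD1B-/- replicate 1, or 0.246 RPKM if its estimated depth is not halved.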
